A study of Mus musculus with 15 samples.

Results

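The Dlk1-Dio3 domain is an imprinted stretch of mouse chromosome 12, in which most genes are read from the chromosome of 1 parent only. It was followed here with every array probe that carries the name of Begain, Dlk1, Meg3, Rtl1, Rian, Mirg or Dio3, or that lies between 110.0 and 111.6 Mb of chromosome 12 in the mm9 build. The rule took 156 of the 55681 non-control probes of the array. Of these, 25 carry a gene or clone name and 131 are unnamed probes placed on intervals of long noncoding transcripts, on the forward or the reverse strand. A member name was found on 10 probes: 3 for Meg3, 2 each for Mirg and Dlk1, and 1 each for Dio3, Rtl1 and Begain. No probe carries the name Rian. In all, 115 of the 156 probes passed the filter, being well above background on 3 or more of the 15 arrays, and were tested, 61 of the 156 were well above background on all 15, and 22 on none.

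The libraries came from liver of C57BL/6J pups on postnatal day 1, with 1 array per pup. Wild-type pups (n = 5) were set against littermates that had inherited from their mother a chromosome without the miR-379/miR-410 microRNA cluster (KO). The KO pups form a group that the sample titles call normoglycaemic and the design text mildly hypoglycaemic (n = 3), and a hypoglycaemic group with severe hypoglycaemia (n = 7). Blood glucose was 50 to 72 mg/dl in wild-type, 44 to 56 mg/dl in normoglycaemic KO and 9 to 33 mg/dl in hypoglycaemic KO pups. Neither the bounds of the deletion nor the sex of the pups is stated in the sources used here. Each array is taken as a separate pup, so the spread between arrays covers pup and array together.

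In this domain the protein-coding genes Dlk1, Rtl1 and Dio3 are read mainly from the father's chromosome. The noncoding RNAs Meg3, Rian and Mirg are read from the mother's chromosome, together with small nucleolar RNAs and microRNAs that are cut from their introns. Dlk1 codes for a membrane-bound relative of the Notch ligands that is abundant in fetal liver, Dio3 for the deiodinase that inactivates thyroid hormone, and Rtl1 for a retrotransposon-derived protein needed in the placenta. Mirg spans the distal microRNA genes of the cluster. In the RefSeq annotation the domain runs in the order Begain, Dlk1, Meg3, Rtl1, Rian, the microRNA cluster with Mirg, Dio3os and Dio3.

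RefSeq lists 36 hairpins and 71 mature microRNAs from Mir379 to Mir410 (GRCm38.p6). Their seeds, the bases 2 to 8 that pair with targets, take 64 forms, and 7 of these are shared by a pair of microRNAs. The arrays measured long RNA and not the mature microRNAs, so no level is given for them. The microRNAs of the first and the last hairpin, which give the deletion its name, are shown with the cluster members that share a seed with them. Capitals mark the seed.
miR-379-5p: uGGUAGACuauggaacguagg
miR-1193-5p: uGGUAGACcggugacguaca
miR-379-3p: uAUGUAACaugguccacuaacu
miR-411-3p: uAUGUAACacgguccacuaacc
miR-410-5p: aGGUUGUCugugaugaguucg
miR-494-5p: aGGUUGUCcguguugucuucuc
miR-410-3p: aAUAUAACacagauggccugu

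The probes on which the results turn are shown next, 5′ to 3′ as given in the files. The first is the Mirg probe at chr12:110979653-110979712, forward strand. The second is the other Mirg probe, at chr12:110987569-110987628, forward strand. The third is the unnamed forward probe at chr12:110981965-110982024, in which capitals mark 41 bases shared with the Mir410 hairpin. These include the whole of miR-410-3p and reach the hairpin's last base, which places the end of Mir410 at position 110982005. The last 3 are unnamed forward probes at chr12:110983688-110983747, chr12:110985786-110985845 and chr12:110985617-110985676, which had the smallest adjusted p of the domain.
Mirg A_55_P2336173: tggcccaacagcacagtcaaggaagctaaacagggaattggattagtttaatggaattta
Mirg A_66_P121059: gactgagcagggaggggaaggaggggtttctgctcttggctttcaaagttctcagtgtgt
A_30_P01029937: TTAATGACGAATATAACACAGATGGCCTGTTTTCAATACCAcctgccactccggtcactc
A_30_P01021613: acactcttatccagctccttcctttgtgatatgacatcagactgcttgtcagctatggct
A_30_P01023364: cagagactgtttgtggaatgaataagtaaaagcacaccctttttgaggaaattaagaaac
A_30_P01031858: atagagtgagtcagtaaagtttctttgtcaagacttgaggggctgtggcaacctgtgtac

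Levels are log2 signals relative to the array's 75th percentile, so they compare libraries for 1 probe and not 1 probe with another. Between 57.9% and 76.2% of all probes were well above background per array, and the number of arrays limits the precision. All 6 hepatocyte markers were well above background on all 15 arrays. The summed level of 10 exocrine pancreas markers ran from 3.52 to 9.95, and 3 libraries stood apart: wild-type replicate 2 (7.15), normoglycaemic KO replicate 2 (9.95) and hypoglycaemic KO replicate 3 (7.55). The arrays lay on 2 slides, and each slide held libraries of all 3 groups.

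Mirg was lower in all 10 KO libraries than in any wild-type library. At its last probe, the one with the higher mean signal, the wild-type levels were 1.29, 1.84, 1.12, 1.62 and 1.43. The normoglycaemic KO levels were −2.56, −2.53 and −2.45. The hypoglycaemic KO levels were −1.93, 0.89, −1.55, −2.78, −2.32, −2.45 and −0.99. The library labelled hypoglycaemic KO replicate 2, at 0.89, lay close below the wild-type range and far from the other KO libraries at this probe. Whether its label is right was not tested.

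With both KO groups weighted equally, Mirg was lower than in wild type by 3.51 on the log2 scale at this probe (SE 0.474, 11.4-fold, limma adjusted p = 0.0242 over 41139 probes). At the first probe the wild-type levels were 0.55, 1.20, 0.60, 1.16 and 0.75, and the normoglycaemic KO levels −3.49, −3.42 and −3.92. The hypoglycaemic KO levels there were −2.57, 0.08, −1.96, −4.15, −3.35, −3.84 and −1.91, with replicate 2 again the highest. For both KO groups the level at this probe was lower by 3.92 (SE 0.55, 15.1-fold, adjusted p = 0.0317). Each KO group alone did not pass the threshold at the last probe. The difference was −3.05 in hypoglycaemic KO (SE 0.491, 8.28-fold, adjusted p = 0.0621) and −3.97 in normoglycaemic KO (SE 0.613, 15.7-fold, adjusted p = 0.078). In 2-sided exact permutation tests on this probe, p was 0.00253 for the hypoglycaemic KO group, and 0.0179 for the normoglycaemic KO group, the smallest value that 3 against 5 libraries allow. In whole liver, fewer cells of a type and less RNA per cell cannot be told apart.

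Without the library labelled hypoglycaemic KO replicate 2 the differences at the last Mirg probe were −3.46 in hypoglycaemic KO (adjusted p = 0.00022) and −3.97 in normoglycaemic KO (adjusted p = 0.0004). That library was set apart by its own Mirg level, so these smaller p-values add no separate support. Without 3 libraries rich in exocrine pancreas markers, the difference of both KO groups was −3.42 and was not called (adjusted p = 0.382). Of the 15 fits that each left out 1 library, 4 kept this call, and the difference in all 15 lay between −3.72 and −3.41. The normoglycaemic and hypoglycaemic KO groups did not part at this probe (hypoglycaemic minus normoglycaemic KO 0.92, SE 0.579, adjusted p = 0.431, exact permutation p = 0.258).

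Between the first and the last Mirg probe lie 19 tested probes, 15 on the forward and 4 on the reverse strand. This stretch is called the Mirg span here, whatever the strand or name of the probe. All 15 forward probes had lower means in both KO groups than in wild type, and 8 of them passed the test for both KO groups together. These 8 were the only probes called among all 41139 in that comparison (0.0194% lower, 0 higher), and they span 7976 bases, from 110979653 to 110987628. In hypoglycaemic KO 3 of the 115 domain probes fell, against 0.0194% of all probes. In normoglycaemic KO 5 fell, against 0.0122%. All of these lie in the Mirg span on the forward strand, and 3 probes were called in all 3 comparisons. With the replicate number as a block, 1 domain probe was called in normoglycaemic KO, 1 in hypoglycaemic KO and 1 in both KO groups together. The Mirg differences at the last probe were then −4.29 in normoglycaemic KO (limma adjusted p = 0.321) and −3.64 in both KO groups (adjusted p = 0.195), so that the call of the latter was lost.

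No domain probe rose in either KO group by the limma test. Among all probes 0.00243% were called higher in each. At an unadjusted p under 0.05, 6 domain probes were higher and 18 lower in hypoglycaemic KO, against 9.53% and 7.85% of all probes. In normoglycaemic KO 21 were higher and 16 lower at that threshold, against 3.35% and 1.55% of all probes. The 21 higher became 6, 2 and 31 without normoglycaemic KO replicate 1, 2 and 3, so that this count rested on single libraries. The 16 lower became 15, 17 and 17. Counts without overlap used the libraries with a value, leaving out missing outlier spots. Of the 115 probes, 12 were lower in all measured KO than in all measured wild-type libraries (0.0997% of all probes). Among the 12, A_30_P01023364 had no value for hypoglycaemic KO replicate 7, and A_30_P01023076 none for wild-type replicate 5. All 12 lie in the Mirg span, 1 of them on the reverse strand. For hypoglycaemic KO alone the count was 12 (0.659% of all probes). For normoglycaemic KO alone it was 16 lower (1.43%) and 3 higher (2.59%). Of the 16, 14 lie in the Mirg span, 2 of them on the reverse strand. The 3 higher probes are 2.61% of the domain's, near the share of all probes.

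The calls depended on single libraries. For both KO groups together the count of 8 became 11 without the library labelled hypoglycaemic KO replicate 2. It became 3 without any 1 of the 5 wild-type libraries or without normoglycaemic KO replicate 1 or 2. It was 5 without normoglycaemic KO replicate 3 or hypoglycaemic KO replicate 1 or 3, and 4 without hypoglycaemic KO replicate 5. For hypoglycaemic KO the count of 3 rose to 13 without its replicate 2, to 10 without its replicate 4 and to 11 without wild-type replicate 1. It fell to 0 without wild-type replicate 4 or hypoglycaemic KO replicate 1, and to 1 without wild-type replicate 2, 3 or 5, normoglycaemic KO replicate 1 or hypoglycaemic KO replicate 3, 5, 6 or 7. For normoglycaemic KO the count of 5 rose to 9 without the library labelled hypoglycaemic KO replicate 2. It fell to 0 without wild-type replicate 1, 2 or 3 or normoglycaemic KO replicate 2 or 3, to 1 without normoglycaemic KO replicate 1, to 2 without wild-type replicate 4, and to 3 without wild-type replicate 5 or hypoglycaemic KO replicate 1, 5 or 7. All 13, 9 and 11 probes called without the library labelled hypoglycaemic KO replicate 2 lie in the Mirg span. Of the 13, 1 lies on the reverse strand. As that library was set apart by its Mirg level, the higher counts without it add no separate support. Without the 3 libraries rich in exocrine pancreas markers 0 domain probes were called in these comparisons, and 18, 18 and 17 were lower at an unadjusted p under 0.05 in hypoglycaemic, normoglycaemic and both KO groups. The shares of all probes there were 5.41%, 1.14% and 1.75%.

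The forward probe A_30_P01021613 was well above background on every array and fell in both KO groups. Its levels were −0.76, −0.44, −0.77, −0.21 and −0.62 in wild type, and −4.07, −4.36 and −4.20 in normoglycaemic KO. In hypoglycaemic KO they were −3.44, −1.28, −3.13, −4.06, −3.53, −3.75 and −3.18. The groups did not overlap, and the library labelled hypoglycaemic KO replicate 2 again lay between the others. The difference was −2.64 in hypoglycaemic KO (SE 0.361, 6.21-fold, adjusted p = 0.0339) and −3.65 in normoglycaemic KO (SE 0.45, 12.5-fold, adjusted p = 0.0174).

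A_30_P01023364 and A_30_P01031858 fell in both KO groups as well, but they lie near background. In the spots that entered the fit, A_30_P01023364 was well above background on 2 wild-type arrays and on no KO array. Its level was at least 1.22-fold lower in normoglycaemic and at least 1.14-fold lower in hypoglycaemic KO. Such a bound sets the wild-type mean against a floor for each KO array, which is the lowest signal of any probe above background there, or the probe's own signal if higher. The spot of hypoglycaemic KO replicate 7 was an outlier spot, missing from the fit, and the probe passed the filter on dim probes only with that spot counted. When outlier spots are not counted, this probe is not tested, and the calls are 2, 4 and 7 for hypoglycaemic, normoglycaemic and both KO groups. A_30_P01031858 was well above background on 4 wild-type, 1 normoglycaemic and 3 hypoglycaemic KO arrays. On the other KO arrays it was not well above background, so no fold is given. Here the library labelled hypoglycaemic KO replicate 2, at −5.38, lay within the range of the other hypoglycaemic KO libraries (−5.45 to −5.15).

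The other called probes were A_30_P01023829, A_30_P01019435 and A_30_P01023731, at starts 110983294, 110986444 and 110983444. Their differences for both KO groups were −1.77, −1.48 and −0.94. Of the 8 called probes, 1 lies before the end of Mir410 and 7 lie after it, up to 5623 bases beyond. The called part of the Mirg span therefore includes sequence past the last microRNA that the deletion's name gives. The probe that carries miR-410-3p was dim and was not called. Its levels were −4.18 to −3.44 in wild-type, −4.58 to −4.38 in normoglycaemic and −4.99 to −3.97 in hypoglycaemic KO libraries (both KO groups minus wild type −0.57, adjusted p = 0.711).

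Across the 8 called probes, the median level relative to the wild-type mean was taken for each library. It is not the share of transcript that remained, as A_30_P01023364 and A_30_P01031858 lie near background and single probes differed widely. Normoglycaemic KO replicate 1 stood at 6.17% at the last Mirg probe and at 49.2% at A_30_P01023731. The median summarises probes chosen for their difference and carries no test. Wild-type libraries stood at 89.0% to 118% of their mean. The normoglycaemic KO libraries stood at 18.2%, 20.6% and 25%. The library labelled hypoglycaemic KO replicate 2 stood at 63.0%, and the other 6 hypoglycaemic KO libraries at 20.1% to 35.0%.

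Within the Mirg span the size of the difference varied from probe to probe and between strands. The sequences below show why neighbours can be compared. A_30_P01026190 and A_30_P01023076 (starts 110986374 and 110986389, forward) share 45 bases, in capitals. A_30_P01023829 (forward) and A_30_P01026210 (reverse, start 110983303) are reverse complements over 51 bases, in capitals. A_30_P01019496 (forward, start 110983159) and A_30_P01030641 (reverse, start 110983154) are reverse complements over 55 bases. A_30_P01027949 (forward, start 110983504) lies between called probes.
A_30_P01026190: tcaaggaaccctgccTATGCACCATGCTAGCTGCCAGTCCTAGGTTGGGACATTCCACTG
A_30_P01023076: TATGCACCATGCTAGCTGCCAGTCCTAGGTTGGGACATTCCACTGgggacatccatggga
A_30_P01023829: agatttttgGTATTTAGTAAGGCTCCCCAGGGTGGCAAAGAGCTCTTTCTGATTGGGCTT
A_30_P01026210: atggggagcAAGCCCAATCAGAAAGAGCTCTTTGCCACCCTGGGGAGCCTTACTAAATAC
A_30_P01019496: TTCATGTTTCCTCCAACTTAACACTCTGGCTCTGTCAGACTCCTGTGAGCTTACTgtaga
A_30_P01030641: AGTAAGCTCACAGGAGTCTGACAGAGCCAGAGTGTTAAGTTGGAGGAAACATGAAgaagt
A_30_P01027949: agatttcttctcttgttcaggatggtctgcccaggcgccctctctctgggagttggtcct

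The overlapping forward pair did not read alike in every library. A_30_P01026190 was −1.52, 0.91, −1.68, −1.29 and −1.36 in wild type, so that replicate 2 stood above the others, whereas A_30_P01023076 was −1.60, −0.89, −1.73 and −1.19, with the fifth an outlier spot and missing. In normoglycaemic KO the first was −4.65, −3.96 and −4.28. The second was well above background on none of these 3 arrays and was at least 17.1-fold lower than in wild type. Neither was called in any of the comparisons with wild type (lowest adjusted p 0.0521, for the second probe and both KO groups).

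The opposite-strand pairs differed from each other. The forward probe A_30_P01023829 was −2.87 to −2.50 in wild-type, −5.00 to −4.66 in normoglycaemic and −5.10 to −3.35 in hypoglycaemic KO libraries. It fell in normoglycaemic KO (4.38-fold, adjusted p = 0.0296). Its reverse partner A_30_P01026210 was −4.52 to −3.73 in wild-type, −4.60 to −4.25 in normoglycaemic and −4.73 to −3.98 in hypoglycaemic KO libraries, with overlap in all 3 groups. In the other pair both strands were lower in all KO than in all wild-type libraries. The reverse probe A_30_P01030641 was −4.41 to −3.26 in wild type and −8.18 to −4.57 in KO, well above background on 5 of 5 wild-type, 0 of 3 normoglycaemic and 2 of 7 hypoglycaemic KO arrays. It was at least 3.18-fold lower in normoglycaemic KO and was not called (both KO groups, adjusted p = 0.554).

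A_30_P01027949 differed little between the groups although called probes lie on both sides of it. Its levels were 0.17 to 0.38 in wild-type, −0.08 to 0.28 in normoglycaemic and −0.24 to 0.38 in hypoglycaemic KO libraries, and its difference for both KO groups was −0.22 (SE 0.107, adjusted p = 0.755).

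At both edges of the run of called probes the neighbouring probes were not called. These are not edges of the deletion, whose bounds are not stated, and the upstream probes were not placed relative to Mir379. Upstream, the nearest tested forward probe was that of the clone EU616813 at 110968992, whose levels ran from −0.09 to 2.11 in wild-type, −1.50 to 1.40 in normoglycaemic and −1.53 to 1.97 in hypoglycaemic KO libraries, so that the groups overlapped widely. An unnamed probe close to it, A_30_P01026915 at 110968812, was well above background on 3 wild-type arrays and, in the spots that entered the fit, on no KO array. It was at least 1.59-fold lower in normoglycaemic and at least 1.34-fold lower in hypoglycaemic KO and was not called. Downstream, the next tested probe lies at 111079941 on the reverse strand and differed by 0.30. The hypoglycaemic and normoglycaemic KO groups differed at no domain probe by the limma test. Of all probes, 0.00729% were called in each direction. At an unadjusted p under 0.05, 8 domain probes were higher and 25 lower in the hypoglycaemic group, against 8.33% and 9.31% of all probes. The 25 lower became 14, 8 and 31 without normoglycaemic KO replicate 1, 2 and 3, so that this count rested on single libraries. The 8 higher became 4, 4 and 7.

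Meg3, the noncoding RNA at the head of the maternally read genes, was measured by 3 probes and did not pass the test in any comparison. At the brightest probe, at chr12:110809678-110809737 on the forward strand, the wild-type levels were 5.13, 5.03, 4.86, 5.24 and 4.91. The normoglycaemic KO levels were 5.33, 5.54 and 5.13, and the hypoglycaemic KO levels ran from 4.82 to 5.59 with a median of 5.17. The groups overlapped. The difference was 0.13 in hypoglycaemic KO (SE 0.12, adjusted p = 0.612) and 0.30 in normoglycaemic KO (SE 0.15, adjusted p = 0.955). The probe at 110799558 differed in sign between the KO groups, at −0.17 and 0.80, and again neither was called.

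Dlk1, measured by 2 probes at 110698502 and 110698721, was not called either. At the brighter probe the wild-type levels were 6.22, 6.03, 5.59, 5.83 and 6.06, and the normoglycaemic KO levels 6.31, 6.43 and 5.90. The hypoglycaemic KO levels ran from 5.77 to 6.73 with a median of 6.20. The difference was 0.28 in hypoglycaemic KO (SE 0.156, exact permutation p = 0.11) and 0.27 in normoglycaemic KO (SE 0.195, exact permutation p = 0.196). The ranges overlapped in both comparisons.

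Begain, which codes for a brain-enriched guanylate kinase-associated protein and lies at the proximal end of the domain, was −2.21 to −1.57 in wild-type, −2.32 to −1.46 in normoglycaemic and −3.23 to −1.51 in hypoglycaemic KO libraries. The last group differed from wild type by −0.53 (SE 0.262, adjusted p = 0.322). Without the library labelled hypoglycaemic KO replicate 2, its highest, the exact permutation p was 0.0238, with 30 such member tests in all, and the limma adjusted p was 0.179.

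Dio3 was dim, at −4.67 to −2.01 in wild-type, −4.62 to −3.99 in normoglycaemic and −4.38 to −2.50 in hypoglycaemic KO libraries. Its differences were −0.19 (SE 0.404) and −0.63 (SE 0.504) for hypoglycaemic and normoglycaemic KO, with adjusted p = 0.847 and 0.964. The noncoding Dio3os, read from the opposite strand next to Dio3, differed by −0.52 and −0.53 at its probe A_55_P2040476. Rtl1 was well above background on 1 array in each group, so its levels, −7.10 to −4.59 over all libraries, are mostly background. The RNA 6430411K18Rik, which lies antisense to Rtl1, was −4.44 to −4.00 in wild-type, −3.98 to −2.92 in normoglycaemic and −6.01 to −4.18 in hypoglycaemic KO libraries. All 3 normoglycaemic KO libraries lay above the other 12, but the lowest of them, at −3.98, was close to the highest wild-type level. Of all probes, 2.59% were higher without overlap in normoglycaemic KO than in wild type. The difference between the KO groups of −1.23 was not called (adjusted p = 0.139).

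Of the 11 other named genes and clones in the window with a tested probe, none was called. The largest differences in hypoglycaemic KO were those of the mitochondrial carrier Slc25a29 (0.66, SE 0.262, adjusted p = 0.215), of 6430411K18Rik (−0.64) and of Dio3os (−0.52). In normoglycaemic KO they were those of XR_106478 (−1.17), 1110006E14Rik (1.12) and 6430411K18Rik (0.59).

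Downstream of Rtl1, 10 forward probes from 110834811 to 110898017, named 1110006E14Rik or unnamed, were well above background on all arrays, and another 5 unnamed ones run from 110906829 to 110913679. RefSeq places Rian and the small nucleolar RNAs between Rtl1 and the microRNA cluster, but the files do not name these probes so. The 2 stretches were set apart after their values were seen, and their medians are a description with no test. In the first stretch the median deviation from the wild-type mean was 0.81, 1.03 and −0.06 in normoglycaemic KO replicates 1, 2 and 3. It was −0.34 to 0.23 in wild type and −0.69 to 0.30 in hypoglycaemic KO. Normoglycaemic KO replicates 1 and 2, both on slide 1, stood above all other libraries, and replicate 3, on slide 2, lay within the wild-type range.

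In the second stretch the median deviation was 1.23, 1.64 and −0.19 in normoglycaemic KO, −0.53 to 0.29 in wild type and −0.04 to 1.1 in hypoglycaemic KO. Here 5 of 7 hypoglycaemic KO libraries lay above all wild-type libraries, and the same normoglycaemic KO libraries were highest. No probe of either stretch was called. The smallest adjusted p was 0.0968 in the first stretch (hypoglycaemic against normoglycaemic KO, 1110006E14Rik, difference −1.50) and 0.229 in the second (hypoglycaemic KO against wild type). On slide 1 the median normoglycaemic KO difference was 1.01 and 1.30 in the first and second stretch, and on slide 2, with 1 such library, −0.05 and −0.01. The exocrine pancreas level was 9.95 in normoglycaemic KO replicate 2, the highest of all, and 3.93 in replicate 1, among the lowest, and its part in these values was not tested.

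Reverse-strand probes in the first stretch moved with the forward ones only in part. The 3 that were well above background on all arrays had Pearson r of 0.892, 0.881 and 0.510 with the median of the forward probes over the 15 libraries, given as a description. A dimmer reverse probe, A_30_P01029357, stood at 70.8%, 71.7% and 97.2% of the wild-type mean in normoglycaemic KO replicates 1, 2 and 3.

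Meg3 and Dlk1, read from opposite parental chromosomes, varied together across the 15 libraries (Pearson r = 0.798, permutation p = 0.00038, adjusted p = 0.00342 over 9 relations). Spearman's rho was 0.65 (permutation p = 0.0112, adjusted p = 0.10). Pearson's r was 0.623 without the 2 libraries farthest from the median of Meg3, 0.76 within slide 1 (n = 8) and 0.824 within slide 2 (n = 7). Both levels share the scaling of their array. Within the 7 hypoglycaemic KO libraries r was 0.944 (exact permutation p = 0.0238, adjusted p = 0.107) and −0.142 without the 2 farthest libraries, so that it rested on these. Meg3 with Begain (r = 0.382) and Dlk1 with Begain (r = 0.30) were not past the threshold over 15 libraries.

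Mirg divides the libraries by genotype, so its relations were taken within the 7 hypoglycaemic KO libraries. There r was −0.316 with Meg3, −0.0636 with Dlk1 and 0.397 with Begain (exact permutation adjusted p = 0.452, 0.873 and 0.452). Without the 2 farthest libraries r was −0.067, 0.951 and 0.111, so that the Dlk1 value rested on those libraries. The other relations there, Meg3 with Begain (r = 0.629) and Dlk1 with Begain (r = 0.765), had adjusted p = 0.242 and 0.149.

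Among 13829 genes outside the domain that were well above background on all arrays, those whose levels followed Mirg most closely over the 15 libraries were Acnat2 (r = 0.891), Igfbp2 (0.89), Cd7 (0.886), Cyp2e1 (0.886) and Plppr1 (0.88). The most opposed were Serpina3i (−0.961), which also lies on chromosome 12, Gxylt1 (−0.942), Fkbp10 (−0.845), Igf2bp1 (−0.807) and Gemin5 (−0.806). For Meg3 the closest were Rest (0.888) and Zfp184 (0.878) with Riox1, Gnl1 and Fam53a next, and the most opposed Hsbp1 (−0.863), Tbc1d9b, Ttc37, Thap1 and Ndufa4. For Dlk1 the closest were Cant1 (0.919), Pus7, Fzd3, Zscan18 and Fam53a, and the most opposed Nr1h3 (−0.935), Synj2bp, Smdt1, Ptgr2 and Ppib. These are the extremes of many comparisons and are given as a ranking only. As Mirg divides the libraries by genotype, its values here mix the difference of KO from wild type with variation within groups.

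Blood glucose within the groups was not related to any domain probe by limma. No probe of 115 in the domain and 0 of all 41139 passed, whereas 3 domain probes had a positive and 5 a negative slope at an unadjusted p under 0.05, against 7.45% and 9.38% of all probes. The slope of Dio3 was 0.0436 per mg/dl (adjusted p = 0.277) and that of Slc25a29 −0.0425 per mg/dl (adjusted p = 0.0711).

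Genes tied to the domain's products were examined as lists, by the brightest probe of each gene. None of the members passed the limma test in hypoglycaemic KO, in normoglycaemic KO or between the KO groups. Unless stated, the counts below are at an unadjusted p under 0.05 in hypoglycaemic KO. There 9.53% of all probes were higher and 7.85% lower. Between the KO groups 8.33% were higher and 9.31% lower in the hypoglycaemic group. Those shares are over all tested probes, dim ones included, whereas the lists hold 1 bright probe per gene. With 1 probe per gene, 2734 of 27542 were higher and 2456 lower in hypoglycaemic KO. Between the KO groups the counts were then 2577 and 2775. Of 44 imprinted genes outside the domain, 3 were higher and 5 lower in hypoglycaemic KO at an unadjusted p under 0.05, with a median difference of −0.05 against 0.02 over all probes. Phlda2, a placental growth repressor, had a wild-type mean of −3.11 ± 1.1 (SD, n = 5). Its mean was −1.27 ± 0.839 (SD, n = 3) in the normoglycaemic KO group and −6.13 ± 2.05 (SD, n = 7) in the other KO group, with 10 of 15 arrays well above background. The imprinted zinc finger gene Peg3 was 1.36 higher in hypoglycaemic than in normoglycaemic KO (SE 0.324, adjusted p = 0.0968). In that comparison 4 of the 44 genes were higher and 10 lower at an unadjusted p under 0.05.

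Of 29 genes of thyroid hormone handling and response, which Dio3 bears on, 4 were higher and 6 lower in hypoglycaemic KO at an unadjusted p under 0.05 (median difference 0.01). Dio1, the deiodinase that activates and clears thyroid hormone in liver, differed by −1.83 in hypoglycaemic KO (SE 0.546, adjusted p = 0.133). The hormone-responsive Klf9 was 1.46 higher in hypoglycaemic than in normoglycaemic KO (SE 0.275), and the gluconeogenic G6pc was 1.90 higher (SE 0.341), both with adjusted p = 0.0795. Between these groups 5 of the 29 genes were higher and 8 lower at an unadjusted p under 0.05.

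Of 23 Notch pathway genes, 3 were higher and 6 lower in hypoglycaemic KO at an unadjusted p under 0.05 (median difference −0.05). The ligand Dll1 differed by −1.25 (SE 0.244) and the target Hes1 by −0.97 (SE 0.18) between hypoglycaemic and normoglycaemic KO, both with adjusted p = 0.0795. Between these groups 1 of the 23 genes was higher and 6 were lower at an unadjusted p under 0.05. Sox9 differed by −0.59 between hypoglycaemic KO and wild type (adjusted p = 0.10).

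Of 23 genes of imprint and domain control, 2 were higher and 3 lower in hypoglycaemic KO at an unadjusted p under 0.05. The DNA methyltransferase Dnmt3b differed by −0.52 (SE 0.125, adjusted p = 0.10). Of 23 genes of microRNA processing and silencing, 1 was higher and 3 lower, and Dicer1, which cuts microRNA precursors, differed by −0.46 (SE 0.117, adjusted p = 0.108). Of 13 genes of box C/D small nucleolar ribonucleoproteins, 4 were higher and 0 lower by the same measure. Their core proteins Nop58 and Nop56 differed by 0.33 (SE 0.0825, adjusted p = 0.102) and 0.28 (SE 0.0943, adjusted p = 0.164).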

How the data were processed

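Liver RNA of 15 pups was hybridised to 1-colour Agilent arrays. The intensity values were made with Agilent Feature Extraction 10.10.1.1, per the file headers, which name the mm9 build and record background subtraction within the array. The deposited log2 values of the series matrix cover 40048 probes and served as an alternative. The submitters' processing notes name limma, with no role given.

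Levels are log2 of the processed signal minus the array's 75th percentile. Control spots (3671 of 62976) were left out, 432 probes printed more than once were averaged, and outlier spots (176 to 546 per array) were set missing. The 41139 probes well above background on 3 or more arrays were fitted in limma 3.58.1 (R 4.3.3) with 3 group means, 12 residual and 1.857 prior degrees of freedom. P-values were adjusted by Benjamini-Hochberg over all of them, and calls had an adjusted p under 0.05. The comparisons were each KO group against wild type, both KO groups with equal weight against wild type, the KO groups against each other, and the slope on blood glucose within groups. Member transcripts had 2-sided exact permutation tests on their brightest probe, and relations used 100000 permutations over 15 libraries or all orders over 7. Python 3.11.15 with scipy 1.17.1 did the rest. The fits were tested on simulated data. The labels give the groups the same replicate numbers and do not say that a number marks a shared litter or day. Deviations of same-numbered wild-type and normoglycaemic KO libraries correlated in all 3 pairs (0.213, 0.262 and 0.103), so the block is given beside that comparison. In these pairs numbers 1 and 2 lay on slide 1 and number 3 on slide 2. Pairs with hypoglycaemic KO ranged from −0.154 to 0.249.

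Alternatives were normexp background with offset 50, quantile normalization, no filter, a filter on all arrays, slide as a block or alone, the deposited log2 values, 1 probe per gene, a replicate block, leaving out libraries and, chosen after seeing the data, a filter that does not count outlier spots. The domain, its members and the gene lists were chosen with earlier results of these data known. Named were all member probes, window genes called or among the 3 largest differences per comparison, unnamed probes called or lying between Meg3 and the end of Mirg (in part as counts and ranges), and up to 4 list members with the largest differences. The overlapping pairs and both stretches upstream of Mirg were picked after their values were seen. Coordinates are those of the files. RefSeq (GRCm38.p6) gave names, gene order and microRNA sequences only.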

Additional observations from a re-analysis of the deposited data

Results flagged for a closer look

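Single libraries that stand apart were sought by Dixon's test in the wild-type and hypoglycaemic KO groups of 16 probes, the members' and the called ones. Of 32 groups tested, 2 stood out, and chance flags about 1 in 20 groups. Dio3 was −2.50 in hypoglycaemic KO replicate 4, against −3.75 in the next library of that group. The unnamed Mirg-span probe A_30_P01021613 was −1.28 in the library labelled hypoglycaemic KO replicate 2, against −3.13 in the next.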

How the results depend on the processing

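Over 27 alternative settings the counts of called domain probes varied, while every Mirg difference from wild type stayed negative. The cause of a changed count was not tested. For hypoglycaemic KO (3 calls) the count was 8 with normexp background, 10 with the deposited log2 values, 7 with the filter on all arrays, 1 without a filter, 0 on slide 1 or slide 2 alone, 0 with 1 probe per gene and 0 without the libraries rich in exocrine pancreas markers, a setting chosen after seeing the data. For normoglycaemic KO (5 calls) it was 9 with the deposited log2 values, 3 without a filter, and 0 on slide 1 or 2 alone, with 1 probe per gene or without the pancreas-rich libraries. For both KO groups (8 calls) it was 2 with 1 probe per gene and 0 in the slide and pancreas settings. The glucose slope had 1 call with normexp background and 1 with the filter on all arrays. Leaving out 1 library gave 0 to 13, 0 to 9 and 3 to 11 calls for hypoglycaemic, normoglycaemic and both KO groups, 0 to 4 between the KO groups (4 without hypoglycaemic KO replicate 4) and 0 to 1 for the slope.

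Not every same-numbered pair of libraries deviated together: 6 of 11 correlated above 0.1 (−0.154 to 0.262). With a replicate block 1 domain probe was called in each comparison with wild type, and the Mirg difference for both KO groups was −3.64 (adjusted p = 0.195).

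The Mirg difference in hypoglycaemic KO was called with normexp background (−2.64), the filter on all arrays (−3.05) and the deposited values (−2.86), as it was in normoglycaemic KO (−3.36, −3.97 and −3.64). That of both KO groups lost its call on slide 1 (−3.51), on slide 2 (−3.58) and without the pancreas-rich libraries (−3.42). Leaving out 1 library gave −3.46 to −2.85, −4.06 to −3.88 and −3.72 to −3.41. Uncalled differences that changed sign were Meg3 between the KO groups on slide 2 (0.065), Dlk1 between the KO groups with quantile normalization (−0.0591), on slide 1 (−0.15) and with the deposited values (−0.0693), and Dio3 in hypoglycaemic KO without the pancreas-rich libraries (0.31). Rtl1 in normoglycaemic KO did so with normexp (−0.0484), quantile normalization (−0.0815), slide block (−0.19), slide 1 (−0.19), slide 2 (−0.16) and replicate block (−0.13). Leaving out 1 library gave −0.15 to 0.12, −0.45 to 0.21 and −0.10 to 0.49 for these Dlk1, Dio3 and Rtl1 differences. The relation of Meg3 and Dlk1 within hypoglycaemic KO passed with quantile normalization (r = 0.967, adjusted p = 0.0232). Dim probes such as Dio3 and Rtl1 are limited by background.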
